A study of Rattus norvegicus with 8 samples.

Results

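The genes described here encode the subunits of the proteasome: every row of the deposited count table whose symbol is Psma, Psmb, Psmc or Psmd followed by digits alone, with a summed count of at least 80 over the 8 libraries. Of the 17055 rows, 37 met this rule: 7 alpha subunits (Psma), 7 constitutive beta subunits (Psmb), 3 immune beta subunits (Psmb8, Psmb9 and Psmb10), 6 ATPases (Psmc) and 14 non-ATPase subunits (Psmd). Another 2 symbols of the same form fell under the minimum, Psma8 with 7 reads in all and Psmb11 with 1, while the members nearest the minimum were Psmd10 with 918 and Psmb8 with 941. All 37 passed the filter on low counts, so none was left untested.

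The RNA came from diaphragm, the main inspiratory muscle, of 8 Sprague-Dawley rats taken 16 weeks after surgery. In the 4 MI animals (MI 1 to MI 4) a myocardial infarction had been made by tying the left anterior descending coronary artery close to the left atrium, and the 4 Sham animals (Sham 5 to Sham 8) had the operation with the tie left out. Both groups therefore shared isoflurane anaesthesia, intubation and ventilation, and the opening of the left chest. The sources used here give neither sex nor age at surgery, no unoperated animals are among the samples, and no measure of infarct size or heart function was used here. Each animal gave 1 library of 7941402 to 24967251 counts, of which the 37 genes took 0.700% to 0.785%. Skeletal muscle markers were abundant in all libraries, with the muscle creatine kinase gene Ckm at 25492 to 39885 CPM (read counts scaled to a common library size) and the skeletal actin gene Acta1 at 41243 to 52595 CPM. Tissue was sequenced in bulk, so fewer cells of a type and less RNA per cell cannot be told apart.

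The proteasome is the barrel-shaped protease that degrades proteins marked with ubiquitin. Its core particle is a stack of rings: outer rings of alpha subunits form the gate, and inner rings of beta subunits hold the active sites, which lie on Psmb5 (chymotrypsin-like), Psmb6 (caspase-like) and Psmb7 (trypsin-like). A regulatory cap sits on the end of the barrel; its ATPase ring (Psmc) unfolds the substrate and feeds it into the core, and its non-ATPase subunits (Psmd) recognise ubiquitin and cut it off. Interferon and immune cells bring in replacement catalytic subunits, Psmb8 for Psmb5, Psmb9 for Psmb6 and Psmb10 for Psmb7, which form the immunoproteasome and favour peptides for antigen presentation. In skeletal muscle the ubiquitin-proteasome route is a main path by which contractile proteins are broken down during wasting.

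Proteasome genes differed little between MI and Sham, and none passed the test, but the core and the cap did not share one pattern of small values. All 14 core genes, alpha and constitutive beta, had a log2 fold change above 0, between 0.07 and 0.26 with a median of 0.21, whereas the 20 genes of the ATPase and non-ATPase classes, called cap genes here, had 10 above and 10 below 0, with a median of -0.0050. These 20 include Psmd5, Psmd9 and Psmd10, chaperones that help assemble the cap and are not part of it; without them 8 of 17 lay above 0, with a median of -0.019. The 14 core genes moved together across libraries, with a median pairwise correlation of 0.89 between alpha and beta genes. Their signs are thus not 14 separate observations. The 3 immune subunits were at 0.13 to 0.18 with wide errors. None of the 37 passed edgeR's quasi-likelihood test with an adjusted p threshold of 0.05, by which 0% of the 10522 genes tested were higher and 0% lower; the members' smallest adjusted p was 0.601. DESeq2, which called 0.0856% of genes higher and 0.0475% lower, and limma-voom, which called 0%, called no member either. At an unadjusted p under 0.05 edgeR gave 10 members higher and 1 lower, beside 3.67% and 4.47% of all genes tested. Above 0 lay 27 of the 37 members and 48.7% of all genes, and the median was 0.12 for members and -0.0070 for all genes. MI 1 weighed on these counts: without it 1 member was higher at an unadjusted p under 0.05, and the members' median was 0.046. Without MI 4, Sham 7 or Sham 8 the number was 4, 3 and 6. In 5 members every MI value lay above every Sham value (Psma1, Psma2, Psmc6, Psmd10 and Psmd14) and in 0 every MI value lay below, beside 2.09% and 2.46% of all genes tested.

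**Figure D1:**
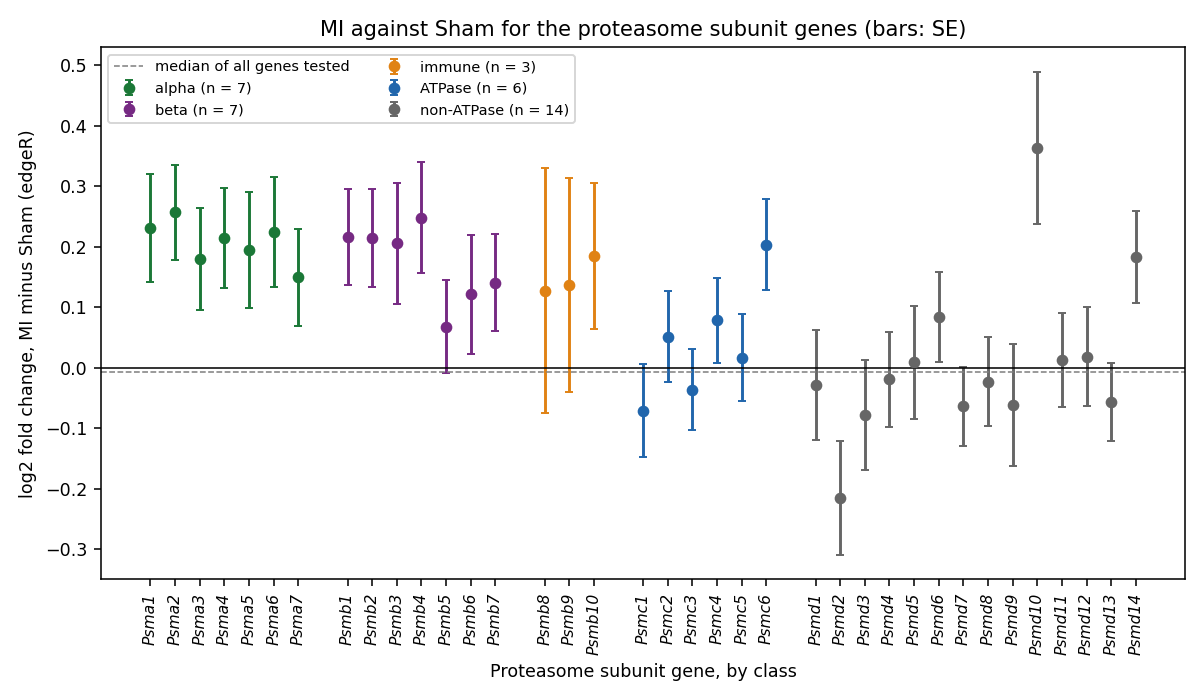
Log2 fold change of MI against Sham (vertical axis, edgeR, bars give the SE) for each of the 37 genes, grouped by class along the horizontal axis; the dashed line is the median of all genes tested. The 14 alpha and beta genes, which moved together across libraries, all lie above 0. The ATPase and non-ATPase genes scatter about 0, from -0.22 for Psmd2 to 0.36 for Psmd10.

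The promoters of members whose groups did not overlap are shown, although none of these members passed the test. That of Psmb10 is added because immune subunits are known interferon targets, whereas those of Psmb8 and Psmb9 are not shown. The windows are the 250 bases before the start site in RefSeq's GRCr8 assembly. There 33 of the 37 genes had an entry (all but Psma7, Psmd6, Psmd12 and Psmd14). Capitals mark CCAAT boxes (CCAAT), matches to the core of the antioxidant response element bound by Nfe2l1 and Nfe2l2 (TGACNNNGC), to the core of the interferon-stimulated response element (GAAA, any 2 bases, GAAA) and to the gamma-activated site (TTCNNNGAA), each on either strand. Each window ends at the annotated start of its gene and holds none of it.
Psma1 (chr1:177887858-177888107, minus strand): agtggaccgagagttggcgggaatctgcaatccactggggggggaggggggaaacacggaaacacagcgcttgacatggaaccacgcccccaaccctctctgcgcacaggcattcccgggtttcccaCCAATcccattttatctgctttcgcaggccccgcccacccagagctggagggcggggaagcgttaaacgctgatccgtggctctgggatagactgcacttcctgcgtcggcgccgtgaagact
Psma2 (chr17:55260442-55260691, minus strand): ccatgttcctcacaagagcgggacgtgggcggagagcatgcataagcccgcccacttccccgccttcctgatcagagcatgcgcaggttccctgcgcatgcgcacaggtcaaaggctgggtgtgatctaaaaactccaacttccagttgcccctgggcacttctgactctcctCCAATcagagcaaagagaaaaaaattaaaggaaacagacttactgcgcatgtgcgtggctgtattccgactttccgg
Psmc6 (chr15:21022064-21022313, plus strand): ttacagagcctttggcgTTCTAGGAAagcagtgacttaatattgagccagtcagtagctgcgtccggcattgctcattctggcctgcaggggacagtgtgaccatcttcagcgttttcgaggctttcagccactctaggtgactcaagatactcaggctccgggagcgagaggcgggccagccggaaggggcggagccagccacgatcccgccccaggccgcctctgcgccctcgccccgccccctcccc
Psmd10 (chrX:109453606-109453855, minus strand): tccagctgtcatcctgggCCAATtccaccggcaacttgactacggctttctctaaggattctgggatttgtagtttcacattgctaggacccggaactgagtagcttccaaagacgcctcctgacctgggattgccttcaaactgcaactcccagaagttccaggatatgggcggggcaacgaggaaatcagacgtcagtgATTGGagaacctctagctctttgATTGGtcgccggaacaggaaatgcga
Psmb10 (chr19:50743293-50743542, minus strand): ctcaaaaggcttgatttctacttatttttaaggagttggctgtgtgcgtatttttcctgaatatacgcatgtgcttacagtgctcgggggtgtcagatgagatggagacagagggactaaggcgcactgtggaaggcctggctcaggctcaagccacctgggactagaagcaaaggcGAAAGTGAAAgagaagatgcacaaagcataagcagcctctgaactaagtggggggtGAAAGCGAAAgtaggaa
The alpha promoters shown held 1 CCAAT box each, that of Psmd10 3, and that of Psmc6 a gamma-activated site match. That of Psmb10 held 2 matches to the interferon-stimulated core, starting at -73 and -17 counted from the start site. Of the immune promoters not shown, neither held the interferon-stimulated core. That of Psmb8 held a CCAAT box and a gamma-activated site match, and that of Psmb9 none of the capitalised motifs.

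Over all members with an entry, a CCAAT box lay in 5 of 6 alpha, 4 of 7 beta, 2 of 6 ATPase, 5 of 11 non-ATPase and 1 of 3 immune promoters, beside 34.0% of the 33469 promoters in the table. The antioxidant response element core was found in 6 of 33 (18.2%) against 10.1% of all promoters, namely Psma3, Psmb2, Psmb5, Psmb6, Psmd1 and Psmd9. The interferon-stimulated core was found in 4 of 33 against 3.41% (Psma4, Psmb3, Psmd7 and Psmb10), and the gamma-activated site in 4 of 33 against 7.67% (Psmc6, Psmd3, Psmd7 and Psmb8). A GC box (GGGCGG), not capitalised here, was in 22 of 33 against 30.5%. In Psmb2 the antioxidant core overlapped a CCAAT box and a GC box, the only overlap between different motifs among the members. Such matches describe letters in these windows and say nothing of binding.

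Among the alpha genes, which build the gate of the core, the members with the smallest p were Psma1, Psma2 and Psma4. Psma2 was at 147, 122, 131 and 137 CPM in MI 1 to MI 4 and at 115, 114, 105 and 115 CPM in Sham 5 to Sham 8. Every MI value lay above every Sham value, with Sham 7 lowest, and the log2 fold change was 0.26 ± 0.079 (SE; edgeR adjusted p = 0.601). Psma1 was at 425, 337, 338 and 389 CPM in MI and 333, 321, 301 and 313 in Sham, again with no overlap, although MI 2 and MI 3 stood only just above Sham 5 (0.23 ± 0.089, adjusted p = 0.601). For Psma4 the MI values were 203, 165, 174 and 196 CPM and the Sham values 169, 160.4, 153 and 154, and here MI 2 lay under Sham 5 (0.21 ± 0.083, adjusted p = 0.601). Psma3, Psma5, Psma6 and Psma7 had log2 fold changes of 0.15 to 0.22, with MI 2 below at least 1 Sham library in each. The mean log2 CPM of the 7 alpha genes was 7.61 ± 0.13 in MI and 7.41 ± 0.06 in Sham (SD, n = 4 each); the lowest MI library, MI 2 at 7.454, and the highest Sham library, Sham 5 at 7.447, all but touched.

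The constitutive beta genes without an active site had larger log2 fold changes than the catalytic ones. Psmb1, Psmb2, Psmb3 and Psmb4, which carry none, had log2 fold changes of 0.21 to 0.25. Psmb4 was at 142, 110.0, 119 and 135 CPM in MI and 107, 106, 99.97 and 114 in Sham (0.25 ± 0.091), Psmb1 at 281, 225, 255 and 261 and 224, 218, 211 and 225 (0.22 ± 0.079). Psmb2 had MI values of 142, 117, 123 and 135 CPM and Sham values of 109, 118, 109 and 109 (0.21 ± 0.081). In each of the 3, MI 2 lay below the highest Sham library, which was Sham 8 for Psmb1 and Psmb4 and Sham 6 for Psmb2, and MI 1, MI 3 and MI 4 lay above all Sham values; the edgeR adjusted p was 0.601 for each.

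The catalytic genes differed less. Psmb5, the chymotrypsin-like subunit, was at 149.8, 128, 145 and 131 CPM in MI and 137, 133, 124 and 134 in Sham, so that MI 2 and MI 4 each lay below 3 of the 4 Sham values (0.068 ± 0.077, edgeR adjusted p = 0.808). Psmb6, the caspase-like subunit, was at 196, 146, 169 and 153 and 158, 144, 145 and 164 CPM (0.12 ± 0.10, adjusted p = 0.734), and Psmb7, the trypsin-like subunit, at 180.4, 147, 162 and 155 and 152, 151, 137 and 144 CPM (0.14 ± 0.08, adjusted p = 0.646). All 3 overlapped between groups, as did the other beta genes, and leaned on MI 1, without which the values were 0.023, 0.027 and 0.076. Psmb1, Psmb2 and Psmb4 also fell without MI 1, to 0.16, 0.16 and 0.18. The difference between the catalytic and the other beta genes was not tested.

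Core genes moved together from library to library. MI 1 was the highest library for 13 of the 14 and Sham 7 the lowest for 12. Over the 8 libraries the median pairwise Pearson correlation of log2 CPM was 0.90 among alpha genes, 0.85 among beta genes and 0.89 between the 2 classes. Among the 6901 tested genes in the CPM range of all 37 members it was 0.0033. With the group means taken off, it was 0.80 within alpha and 0.81 within beta, and without MI 1 it was 0.83 and 0.64. Among ATPases the median was 0.34, or 0.52 with the group means taken off, and among non-ATPase genes it was 0.22, or 0.36 with the group means taken off and 0.055 without Sham 6. Between classes, ATPases correlated with alpha genes at 0.62 and with beta genes at 0.55, above the value among themselves, while non-ATPase genes were at -0.042 with alpha and -0.043 with beta genes. These values share the libraries and their scaling, and are given as a description.

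**Figure D2:**
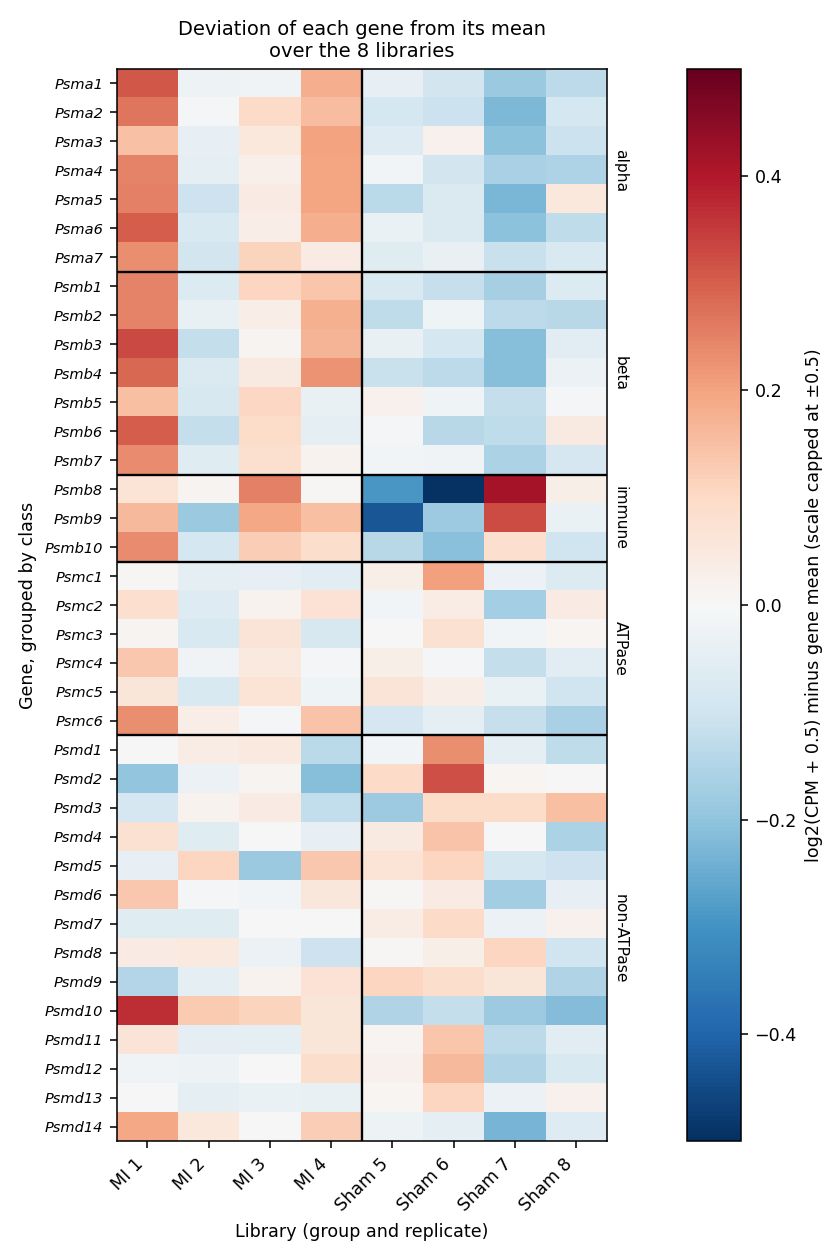
Each cell gives log2(CPM + 0.5) of a gene (rows, grouped by class) in a library (columns, MI left of the vertical line, Sham right) minus that gene's mean over the 8 libraries. Alpha and beta rows are red in MI 1 and blue in Sham 7 as a block, whereas Sham 6 is the highest library for 7 of the 14 non-ATPase genes.

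The mean level of the 14 core genes was 7.58, 7.25, 7.38 and 7.45 log2 CPM in MI 1 to MI 4 and 7.26, 7.25, 7.15 and 7.25 in Sham 5 to Sham 8. Thus 3 MI libraries stood above all Sham libraries and MI 2 stood among them. The 20 cap genes averaged 7.47, 7.41, 7.43 and 7.42 in MI and 7.43, 7.51, 7.36 and 7.36 in Sham, so that every MI value lay inside the Sham range. Core minus cap, a contrast chosen after the class values were seen and given without a test, came to -0.019 ± 0.12 log2 in MI and -0.19 ± 0.06 in Sham (SD, n = 4 each), a difference of 0.17. MI 2, at -0.16, lay between Sham 8 at -0.11 and Sham 6 at -0.26, and almost level with Sham 5. Scaling all but cancels within a library, so the scaling alternatives could not change this contrast. With 1 library left out, the difference ran from 0.12 without MI 1 to 0.21 without MI 2. It was 0.18 with the 3 assembly chaperones left out of the cap. It was 0.13 among the animals numbered below 270 (MI 1, MI 2 and Sham 5) and 0.18 among the other 5. The labels name no batch, and the numbers are only the animals' identifiers.

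**Figure D3:**
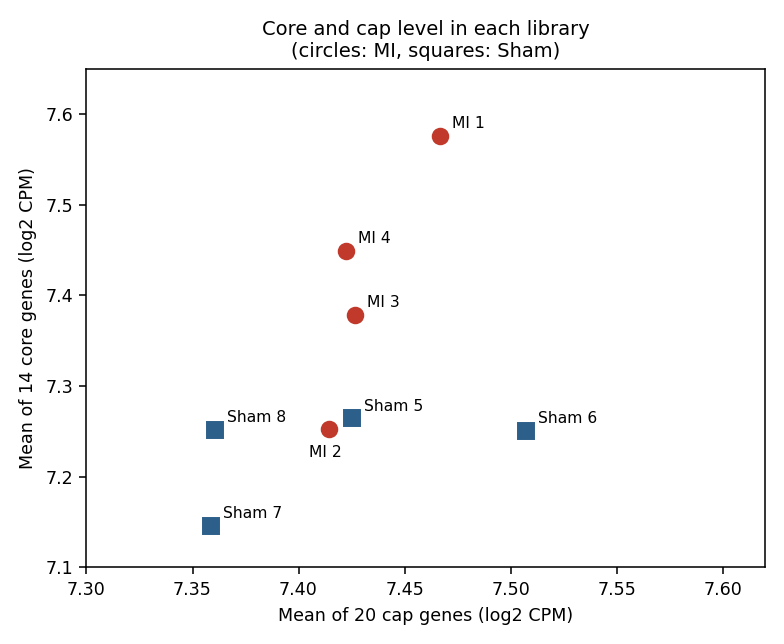
Mean log2 CPM of the 14 core genes (vertical axis) against that of the 20 cap genes (horizontal axis) in each library, circles for MI and squares for Sham. MI 1, MI 3 and MI 4 lie above all Sham libraries on the core axis, MI 2 lies beside Sham 5, and Sham 6 has the highest cap level.

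Markers of some other cell types also differed between the groups. Red blood cell markers had 5 of 5 members higher at an unadjusted p under 0.05, beside 3.67% of all genes, summing to 367 to 801 CPM in MI and 235 to 376 in Sham, where MI 1 lay below Sham 8. Schwann cell markers had 3 of 3 above 0, beside 48.7% of all genes tested. They summed to 24.3 to 42.0 CPM in MI and 10.6 to 23.0 in Sham, with no overlap and Sham 7 lowest. None of these markers was at 0 in a library. Of 5 fibroblast markers 3 lay above 0 and 2 were higher at an unadjusted p under 0.05, Lum at 0.76 ± 0.26 and Dcn at 0.34 ± 0.15. Col1a1 was at 0.14 ± 0.40, Col3a1 at -0.0046 ± 0.26 and Pdgfra at -0.13 ± 0.15. Of 6 endothelial markers 5 lay above 0 and 1 was higher at that p, Emcn at 0.30 ± 0.12. Egfl7 lay about as far below 0, at -0.31 ± 0.15, and the others were at 0.026 to 0.14. Skeletal muscle markers had 1 of 7 above 0, with a median of -0.088 and none at an unadjusted p under 0.05. The edgeR adjusted p was 0.601 or more for each. MI 1, highest for the core, had the lowest red blood cell sum of the MI libraries, and the part of these cell types in the core result was not tested.

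The 6 ATPase genes varied little, with a median SD within groups of 0.077 log2 against 0.16 for tested genes in the members' CPM range. That range ran from a mean of 7.95 CPM (Psmb8) to 478 CPM (Psmd1), while the ATPases lay at 203 to 398 CPM. The comparison is thus not matched for level, and counting error is smaller at high counts. Psmc6, a member of the ring, had its largest log2 fold change. The gene was at 377, 329, 319.9 and 354 CPM in MI and 303, 312, 296 and 287 in Sham, with every MI value above Sham (0.20 ± 0.075, edgeR adjusted p = 0.601). Psmc4 was at 223, 200.3, 209.8 and 201 CPM in MI and 207, 202, 187 and 195 in Sham (0.078 ± 0.07, adjusted p = 0.754), and this shrank to 0.040 without MI 1 and 0.044 without Sham 7. Psmc1 had MI values of 343, 329, 331 and 329 CPM and Sham values of 348, 392.4, 334 and 325 (-0.071 ± 0.077, adjusted p = 0.800). Sham 6 was its highest library, and without it the log2 fold change was -0.0042. Psmc2, Psmc3 and Psmc5 lay between -0.036 and 0.052.

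The 14 non-ATPase genes held the highest and the lowest log2 fold change of the 37, the highest in an assembly chaperone; among subunits of the finished cap the highest was the 0.20 of Psmc6. Psmd10, also called gankyrin, is a chaperone that helps assemble the ATPase ring and is not part of the finished cap. It was at 10.4, 8.74, 8.63 and 8.29 CPM in MI and 7.098, 7.27, 6.94 and 6.76 in Sham, from 55 to 180 reads a library. The Sham values were tightly grouped and all lay below the MI values, giving the largest log2 fold change of the 37, 0.36 ± 0.13 (edgeR adjusted p = 0.601). The other chaperones of this ring, Psmd5 and Psmd9, were at 0.009 ± 0.093 and -0.061 ± 0.10. Psmd14, the deubiquitinase that strips ubiquitin from the substrate at the entry to the core, was at 220.0, 199.6, 192 and 209 CPM in MI and 189, 186, 164 and 184 in Sham, without overlap (0.18 ± 0.076, adjusted p = 0.601). Psmd7, which pairs with Psmd14 in the cap, was at -0.064 ± 0.065. Psmd7 and Psmd13, another subunit of the cap's lid, were the steadiest members, each with an SD within groups of 0.043 log2. Only 0.362% and 0.319% of the 6901 tested genes in the members' CPM range, which was not matched to their level, had a smaller one.

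Psmd2, a scaffold of the cap's base that docks ubiquitin-like proteins, was the lowest member. Its values were 351, 394, 406 and 347 CPM in MI and 429, 503, 404 and 402 in Sham (-0.22 ± 0.094, edgeR adjusted p = 0.601). MI 1, MI 2 and MI 4 were below all Sham libraries and MI 3 lay just above Sham 7 and Sham 8. Without Sham 6, the highest library, the value was -0.13. Psmd1, its partner scaffold, was at -0.028 ± 0.091, and the remaining 7 non-ATPase genes (Psmd3, Psmd4, Psmd6, Psmd8, Psmd11, Psmd12 and Psmd13) lay between -0.078 and 0.084. The class medians were 0.21 for alpha, 0.21 for beta, 0.14 for immune, 0.034 for ATPase and -0.021 for non-ATPase genes, each to be read against -0.0070 over all genes. Single libraries moved most of them: the beta median was 0.12 without MI 1, the immune median 0.041 without Sham 5 and 0.31 without Sham 7, the ATPase median 0.010 without MI 1 and 0.000063 without Sham 7, and the non-ATPase median 0.044 without Sham 6 and -0.050 without Sham 8.

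Immune subunits were counted from far fewer reads, 65 to 346 per library and gene, and overlapped between groups. Psmb8, the replacement for Psmb5, was at 8.21, 7.88, 9.39 and 7.83 CPM in MI and 6.29, 5.40, 10.6 and 7.99 in Sham. Sham 7 was the highest of all 8 libraries and Sham 6 the lowest, so that the Sham range enclosed the MI values (0.13 ± 0.20, edgeR adjusted p = 0.870). Psmb9, the replacement for Psmb6, was at 11.5, 8.92, 11.8 and 11.4 CPM in MI and 7.46, 8.94, 12.9 and 9.96 in Sham, with Sham 7 again highest and Sham 5 lowest (0.14 ± 0.18, adjusted p = 0.839). Psmb10, which replaces Psmb7, was at 14.9, 11.8, 13.7 and 13.4 and 11.3, 10.8, 13.3 and 11.7 CPM (0.18 ± 0.12, adjusted p = 0.684), MI 1 being highest. Their SD within groups was 0.13 to 0.31 log2. Of genes in the members' CPM range, 87.1% varied less than Psmb8, which lay at the bottom of that range. For Psmb8 and Psmb9 the size of the difference turned on single Sham animals. Psmb8 was at 0.35 without Sham 7, 0.00028 without Sham 6 and 0.041 without Sham 5, and Psmb9 was at 0.31 without Sham 7 and 0.019 without Sham 5.

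The log2 ratio of each immune gene to the catalytic gene it replaces was compared between groups within animals. Ratios of read counts carry each pair's transcript lengths, so only their differences between animals are read. Psmb8 minus Psmb5 was -4.17, -3.99, -3.93 and -4.04 in MI and -4.42, -4.59, -3.53 and -4.04 in Sham, a difference of 0.11. Psmb9 minus Psmb6 was -4.08, -4.01, -3.83 and -3.73 in MI and -4.38, -3.99, -3.47 and -4.02 in Sham, a difference of 0.05, and Psmb10 minus Psmb7 was -3.59, -3.62, -3.55 and -3.52 and -3.73, -3.79, -3.35 and -3.61, also 0.05. Sham 7 had the highest ratio in each pair. Exact two-sided permutation tests over the 70 arrangements of the animals gave p = 0.686, 0.8286 and 0.686, each 0.8286 after Benjamini-Hochberg adjustment over the 3 pairs, where the smallest p possible is 0.0286. Leaving out Sham 7, the highest library, gave the largest differences, 0.32, 0.22 and 0.14, and no test is read from that choice. Other single libraries turned the sign: without Sham 6 the first was -0.035 and the third -0.0078, and without Sham 5 the second was -0.083. Among the animals numbered below 270 they were 0.34, 0.33 and 0.12, on a single Sham library, and among the others 0.07, 0.05 and 0.05.

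**Figure D4:**
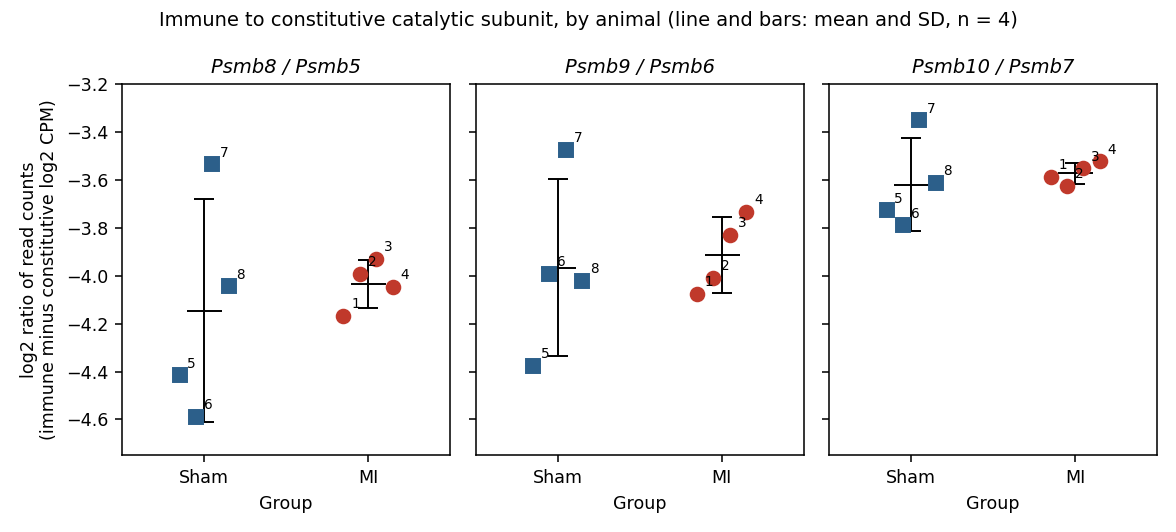
Log2 ratio of an immune to its constitutive catalytic subunit in each animal (points, numbered by replicate), with the mean and SD of each group of 4. Sham 7 is the highest animal in all 3 panels and the MI animals lie within the Sham range in each.

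Sham 7 also had the highest leukocyte marker level. Of the 15 markers listed, 11 passed the filter, 4 of them above 0, beside 48.7% of all genes tested. The mean level of the 11 was 3.96 log2 CPM in Sham 7, 2.45 to 2.86 in the other Sham libraries and 2.68 to 3.36 in MI. Summed, they came to 225 to 387 CPM in MI and 166 to 429 in Sham. The mean of the 3 immune subunits was 3.63 log2 CPM in Sham 7, 3.03 to 3.31 in the other Sham libraries and 3.25 to 3.54 in MI. MI 1 had an immune subunit level of 3.503 with a leukocyte level of only 2.68. Sham 7 was the deepest library and the lowest for the core as well. The part of leukocytes in the immune subunit values was not tested.

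**Figure D5:**
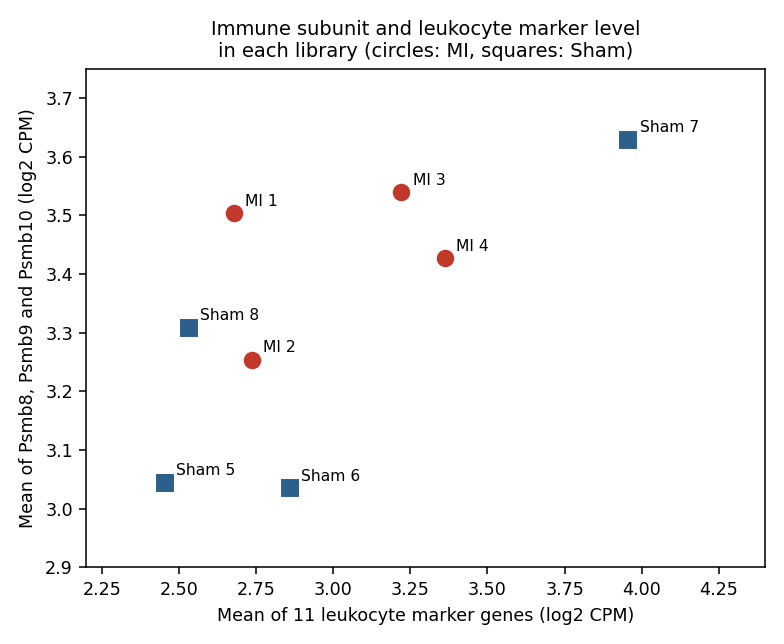
Mean log2 CPM of Psmb8, Psmb9 and Psmb10 (vertical axis) against that of 11 leukocyte marker genes (horizontal axis) in each library, circles for MI and squares for Sham. Sham 7 is highest on both axes, at 3.63 and 3.96, and Sham 5 and Sham 6 are lowest for the immune subunits.

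Factors that build, open or supply the proteasome gave few differences. Psmg1, Psmg2 and Psmg4, assembly chaperones of the core, and Akirin2, listed with them, lay above 0 (4 of 4 tested, beside 48.7% of all genes). Psmg2 was at 49.3, 43.4, 45.4 and 49.3 CPM in MI and 40.9, 40.1, 36.5 and 41.6 in Sham, with no overlap (0.24 ± 0.085, edgeR adjusted p = 0.601), while its partner Psmg1 was at 0.13 ± 0.09 (0.067 without MI 3) and Psmg4 at 0.11 ± 0.11 (0.029 without MI 1). Akirin2, which brings proteasomes into the nucleus, was at 0.10 ± 0.13, a sign that turned without MI 1. Pomp, the maturation factor of the core, had 19 reads in all and was not tested. Psmg3 and Paaf1 were not analysed here.

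Activators of the core other than the ATPase cap, taken with the inhibitor Psmf1, were divided, with 3 of 5 genes above 0, beside 48.7% of all genes. Psme1 and Psme2, the interferon-inducible activator that docks on immune and standard cores, were at 153 ± 36.8 CPM in MI and 150.2 ± 11.1 in Sham (SD, n = 4 each) and at 38.5 ± 7.5998 CPM in MI and 42.9 ± 5.66 in Sham, with log2 fold changes of 0.028 ± 0.15 and -0.15 ± 0.14. MI 1 was highest for both, at 204 and 49.7 CPM, and without it they were at -0.15 and -0.31. Over the libraries left out in turn, Psme2 ran from that -0.31 to -0.094 without MI 4. Psme3, a nuclear activator, was at -0.026 ± 0.087, with a sign that depended on the animals included, and Psme4, an activator linked to histone breakdown, at 0.13 ± 0.10 (0.056 without MI 1 and 0.068 without Sham 8). Psmf1, an inhibitor of the core, was at 65.4, 67.3, 59.6 and 63.5 CPM in MI and 60.8, 52.1, 56.1 and 55.0 in Sham (0.19 ± 0.08, edgeR adjusted p = 0.601), where only MI 3 fell below a Sham library.

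Of 12 cap partners, ubiquitin receptors and deubiquitinases, 8 lay above 0 and 0 reached an unadjusted p under 0.05 in either direction. Over all genes tested, 48.7% lay above 0, and 3.67% were higher and 4.47% lower at that p by edgeR. The members with the smallest p were Ubqln4, a shuttle for ubiquitinated proteins (-0.22 ± 0.10), Shfm1, a small cap subunit also called Sem1 (0.19 ± 0.10; 0.085 without MI 1), and the cap-bound thioredoxin-like protein Txnl1 (0.13 ± 0.078). The unfoldase Vcp and its cofactors had 3 of 8 above 0, with Faf2 at -0.24 ± 0.12 (-0.15 without MI 1), Ufd1l at 0.14 ± 0.075 (0.087 without MI 4) and Faf1 at 0.18 ± 0.10 (0.096 without MI 1). Ubiquitin genes and their activating enzymes had 4 of 6 above 0, among them Rps27a (0.17 ± 0.09; 0.11 without MI 1) and Uba6 (0.21 ± 0.11; 0.14 without MI 1). The genes named had edgeR adjusted p values of 0.616 or more.

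Transcription factors of proteasome genes and their regulators had 4 of 9 above 0, beside 48.7% of all genes tested, and a median of -0.15. Nfe2l1, the factor that raises proteasome genes when the proteasome is inhibited, was at 25.4, 44.8, 38.8 and 28.0 CPM in MI and 32.6, 49.6, 44.1 and 34.8 in Sham, with MI 1 lowest (-0.23 ± 0.20, edgeR adjusted p = 0.747; -0.12 without MI 1, -0.15 without MI 4, -0.11 without Sham 6 and -0.40 without MI 2). Nfe2l1 was thus lowest in the library with the highest core level, and its relation to the core genes was not tested. Its small partner Mafk was at 12.5, 27.7, 22.8 and 19.0 CPM in MI and 25.5, 32.1, 32.5 and 28.5 in Sham (-0.53 ± 0.21), and Keap1, which holds Nfe2l2 for degradation, at 39.1, 61.8, 66.6 and 41.0 and 58.2, 72.7, 79.96 and 78.8 (-0.47 ± 0.18). These were the 2 of the list at an unadjusted p under 0.05, both lower, beside 4.47% of all genes, with an adjusted p of 0.601. The repressor Bach1 was at -0.29 ± 0.16.

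Interferon gamma and class I antigen processing genes, which are switched on with the immune subunits, had 5 of 13 above 0 and a median of -0.041. Of all genes tested, 48.7% lay above 0. Tapbp, which loads peptides onto class I molecules, was at 25.0, 13.7, 23.8 and 20.9 CPM in MI and 21.3, 28.0, 31.8 and 33.7 in Sham (-0.46 ± 0.20; -0.30 without MI 2). Erap1, a peptide-trimming enzyme, was at -0.20 ± 0.092, and the class I gene RT1-A1 at -0.36 ± 0.19 (-0.23 without MI 2 and -0.22 without Sham 8). RT1 genes are near-identical and differ between outbred animals, so reads may have been divided among them. Tapbp and Erap1 were the 2 of the list at an unadjusted p under 0.05, both lower, beside 4.47% of all genes. The edgeR adjusted p was 0.601 for Tapbp, 0.608 for Erap1 and 0.641 for RT1-A1. The transporter gene Tap2 was listed at 0 in every library, and Nlrc5 was not analysed here.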

How the data were processed

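Total RNA from snap-frozen diaphragm was made into libraries with SMARTer ultra-low-input and KAPA Hyper reagents, as the labels' protocols state. The authors deposited raw read counts (whole numbers in the file), 1 row for each gene symbol and 1 column for each animal. The submitters' processing notes name bcl2fastq, STAR 2.5.0a, TopHat, TopHat2, Cufflinks and build rn5. The sources used here do not name the counting program, annotation, strand setting or handling of reads with several matches, so reads of overlapping genes or processed copies of proteasome genes could not be separated.

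Counts were analysed in R 4.3.3 with edgeR 4.0.16: TMM scaling, filterByExpr, and a two-sided robust quasi-likelihood test, adjusted over 10522 genes by Benjamini and Hochberg's method, with a threshold of 0.05. SE is the log2 fold change divided by the root of F. Levels are TMM-scaled CPM, or log2 CPM with a prior count of 2. The common coefficient of biological variation was 17.3%, and 3 counts correspond to 0.120 to 0.378 CPM, which covers counting error only. Within-group pairs of libraries differed beyond sampling noise (12.1 to 44.3 times the chi-square expected), so each counted as 1 replicate. That the animals are separate is read from their numbers in the labels. Alternatives were RLE scaling, library totals, other filters, DESeq2 1.42.0, limma-voom (limma 3.58.1), no robust estimation, the animal number range as a term, a prior count of 0.5, and each library left out. The procedure was tested on simulated data with 200 changed genes. Their changes were larger than any seen among the members, so power at the members' size of change was not tested. The table's symbols were used as deposited, and no transcript lengths were at hand, so levels were not compared between genes.

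Members and lists were chosen with earlier results of these data known. Named with values in every library are the immune subunits and their partners, the 3 members of each other class with the smallest p, and from each pathway list the 3 with the smallest p, besides Pomp, Psme1 to Psme4, Psmf1, Nfe2l1 and Akirin2 (pathway genes with fewer values). Some genes of these lists are not reported here. Promoter sequences are RefSeq's, build GRCr8.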

Additional observations from a re-analysis of the deposited data

Results flagged for a closer look

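In 142 groups of 4 animals (the members, the named pathway genes, the class levels and the ratios, in MI and Sham), 5 held a library far from the other 3 by Dixon's criterion. Chance flags about 1 group in 20, so this is no more than chance gives. Psma2 in Sham had Sham 7 at 105 CPM against 114 to 115 in the others, and Psmb2 in Sham had Sham 6 at 118 CPM against 109 in the others. Psmb9 in MI had MI 2 at 8.92 CPM against 11.4 to 11.8. MI 1 was high for the assembly chaperone Psmg4, at 17.0 CPM against 14.1 to 14.4, and for Akirin2, at 29.9 CPM against 20.9 to 22.1.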

How the results depend on the processing

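No proteasome gene passed an adjusted p of 0.05 in any of the 16 alternatives. Over all genes DESeq2 called 9 higher and 5 lower, and leaving out 1 library gave 0 to 1 higher and 0 lower. At an unadjusted p under 0.05, leaving out 1 library gave 1 to 14 members higher and 0 to 1 lower, and 208 to 461 genes higher and 306 to 629 lower over all genes (208 and 306 without Sham 7). The animal number range as a term gave 0 members lower and 308 genes lower. The members' median log2 fold change ran from 0.046 to 0.15 and the non-ATPase median from -0.050 to 0.044 with 1 library left out. The alpha, beta and immune genes all stayed above 0 in the 16 alternatives. The ratio differences ran from -0.035 to 0.32 for Psmb8 minus Psmb5 (-0.035 without Sham 6), -0.083 to 0.22 for Psmb9 minus Psmb6 (-0.00602 without MI 4, -0.083 without Sham 5) and -0.0078 to 0.14 for Psmb10 minus Psmb7 (-0.0078 without Sham 6). Signs turned for Psme1 (-0.15 to 0.13; -0.15 without MI 1, -0.022 without Sham 7), Psme3 (-0.063 to 0.031; 0.031 without MI 4, 0.016 without Sham 6) and Akirin2 (-0.039 to 0.16; -0.039 without MI 1). The cause of these changes was not tested. No paired analysis was possible because the groups share no replicate numbers. Levels per coding length were not run, since no lengths were at hand. With 65 to 346 reads per library, the immune subunits carry the widest counting error besides Psmd10.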
